A study of Mus musculus with 16 samples.

Results

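Left ventricles of mice homozygous for the P635L mutation of RBM20 were compared with wild-type (WT) left ventricles, all from mice that had received a control virus. The comparison used 8 of the 16 RNA-seq libraries of the study, 4 labelled P635L and 4 labelled WT, chosen by genotype and virus as the labels give them. Every one of these 8 mice, of the Bl6J background and of either sex, had received 1e12 viral genomes of AAV9, injected into the tail vein when 4 weeks old. The control construct, pCAG-iCre-T2A-eGFP, encodes Cre recombinase and green fluorescent protein, so both groups carried it and neither was free of virus. Tissue was collected after another 12 weeks, from animals 16 weeks old, and each library came from 1 mouse, with polyadenylated RNA read after a directional preparation. The groups are called P635L Ctr and WT Ctr below. The other 8 libraries, from mice given a Tnpo3 virus, entered the gene model only to share its estimate of the spread.

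RBM20 is an RNA-binding protein of striated muscle that holds back exons of titin and of other sarcomere, calcium-handling and kinase transcripts during splicing. It works in the nucleus, and a short stretch rich in arginine and serine is needed for its import. Missense changes in that stretch cause a dilated cardiomyopathy in which the protein is also found in the cytoplasm. The changed proline is the first residue of this stretch in the mouse protein. Its codon lies in the protein-coding exons of Rbm20 at chr19:53843239-53843241 (GRCm38, plus strand), and the surrounding reference coding sequence of the GENCODE M21 transcript is shown with the proline codon in capitals, since that is the codon the mutation alters.
Rbm20 proline codon with 8 codons on each side: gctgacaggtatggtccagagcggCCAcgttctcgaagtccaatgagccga

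Before the results, 2 features set libraries apart. The total count ran from 28493249 in WT Ctr 1 to 85922669 in P635L Ctr 2. A single gene without a symbol in the tables used, ENSMUSG00000119584, took 19.96% of all counts in WT Ctr 2 and 21.22% in WT Ctr 4, against 0.7026% to 5.298% in the other 6 libraries. WT Ctr 4 was also the one library of the 8 with more reads of Xist than of Y-linked genes, so all 4 P635L Ctr libraries and 3 of the 4 WT Ctr libraries carried Y-linked reads. WT Ctr 1 stood apart in immune genes, and its summed lymphocyte markers read 173 CPM (counts scaled to library size) against 14.9 to 24.9 in the other WT Ctr libraries. Results that rest on these libraries are given below with and without them, where the rich libraries are WT Ctr 2, WT Ctr 4 and 1 library from the Tnpo3 groups that shared the fit. In this bulk tissue fewer cells of a type and less RNA per cell cannot be told apart.

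The transcript of Rbm20 itself did not pass the test. It read 167, 191, 288 and 333 CPM in WT Ctr 1 to 4 and 231, 254, 251 and 204 CPM in P635L Ctr 1 to 4. The 2 groups overlapped, and the log2 fold change was -0.06 ± 0.20 (SE) with an adjusted p of 0.88. These counts do not read the mutated base, so they do not check the genotype. All adjusted p-values for genes come from edgeR's quasi-likelihood test with Benjamini-Hochberg adjustment over all genes tested, and all fold changes are P635L Ctr against WT Ctr. A number in brackets after a gene, with no unit, is its log2 fold change.

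Gene expression differed widely between the genotypes. Of 18662 genes tested, 2653 passed an adjusted p of 0.05, or 14.2% of them. The calls were split evenly, with 1320 genes higher (7.07%) and 1333 lower (7.14%) in P635L Ctr. Counts of called members in the gene lists below are to be read beside these shares. In 2284 of the called genes (12.2% of those tested) every P635L Ctr library lay on the same side of every WT Ctr library. Whatever the test gave, the libraries did not overlap in 19.1% of genes tested (9.71% higher and 9.43% lower). The median size of a called change was 0.865 on the log2 scale, 1128 called genes moved by at least 1 and 458 by at least 2. The median log2 fold change over all genes tested was -0.049.

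**Figure D1:**
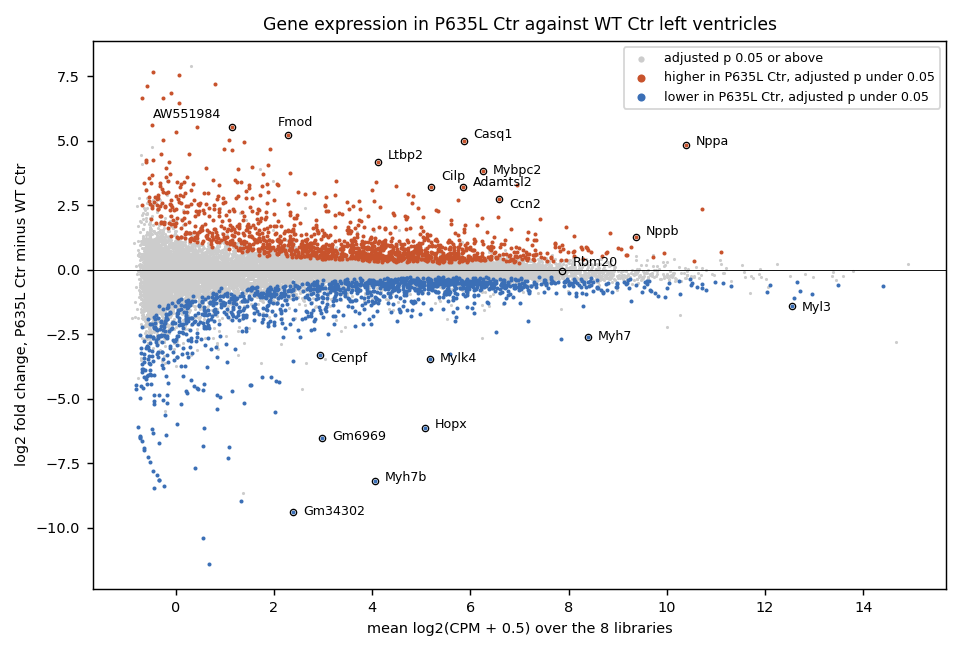
Each point is a gene, with its mean log2(CPM + 0.5) over the 8 libraries on the x axis and its log2 fold change, P635L Ctr minus WT Ctr, on the y axis. Coloured genes passed an adjusted p of 0.05 (1320 higher, 1333 lower), and the circled genes are named in the text, with Myh7b and Hopx far below and Nppa and Casq1 far above the rest at their level.

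Splicing was read from the authors' deposited rMATS table of these 2 groups, which gives for each event an inclusion level between 0 and 1 in each of 4 libraries per group. The order of libraries within a group is not given there, so libraries are called by their listed position. An event was called when the false discovery rate (FDR) in the authors' deposited table was under 0.05, the mean inclusion differed by at least 0.1 and each group had a mean of at least 10 junction reads. Of 34810 events tested, 870 in 665 genes were called, or 2.5%, with 366 higher and 504 lower in inclusion in P635L Ctr. Skipped exons were called in 570 of 24092 events (2.37%). The shares were 2.28% for mutually exclusive exons, 2.77% for alternative 3' splice sites, 3.19% for alternative 5' splice sites and 3.17% for retained introns. In 331 called events (0.951% of those tested) the libraries of the 2 groups did not overlap. That share was 0.888% for skipped exons, 1.39% for mutually exclusive exons, 0.858% and 1.28% for 3' and 5' splice sites and 0.892% for retained introns. A quasi-binomial test of inclusion against skipping reads, chosen after seeing the data, needed at least 10 reads of each kind over the 8 libraries. It called 171 events, 161 of them among the 870. Of the 171 events, 94 were higher and 77 lower in inclusion. An edgeR test of inclusion against skipping reads needed at least 40 reads of each kind. It called 69 events, 45 higher and 24 lower, so the excess of lower inclusion in the 870 did not hold in either test.

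Alternative exons of titin, of the kinase CaMKII delta, of the ryanodine receptor, of tropomyosin and of 4 other genes are printed here because the main splicing results turn on them. Coordinates are those of the deposited table (GRCm39 per the submitters' processing notes). The letters are the GENCODE M21 transcript sequence of the exon (GRCm38), read 5' to 3' along the transcript and all in lower case, and matched within the gene by exon length and by the distances to both flanking junctions. Of the 27 skipped exons looked up, 25 matched 1 sequence.
Ttn 78-base exon: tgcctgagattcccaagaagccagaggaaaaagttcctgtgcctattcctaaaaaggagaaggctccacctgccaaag
Camk2d 60-base exon: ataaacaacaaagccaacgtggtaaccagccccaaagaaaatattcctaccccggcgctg
Ryr2 24-base exon: gtcacaggatcccaacgcagcaag
Tpm2 76-base exon, first in the gene: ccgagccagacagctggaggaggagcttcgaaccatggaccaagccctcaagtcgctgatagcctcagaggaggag
Tpm2 76-base exon, second in the gene: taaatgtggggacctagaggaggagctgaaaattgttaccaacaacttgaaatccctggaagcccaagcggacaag
Arhgap10 66-base exon: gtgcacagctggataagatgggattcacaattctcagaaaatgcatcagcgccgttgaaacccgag
Postn 81-base exon: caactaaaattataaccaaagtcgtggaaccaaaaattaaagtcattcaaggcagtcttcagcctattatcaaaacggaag
Pdlim5 15-base exon: taaccctggcactgt
Tnnt2 9-base exon: caagctcag

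Titin, the giant spring protein of the sarcomere, showed the largest change among the named exons. Its 78-base exon (chr2:76678623-76678700, minus strand) was included at 0, 0.051, 0 and 0.1 in the 4 listed WT Ctr libraries and at 1, 1, 0.898 and 1 in the 4 listed P635L Ctr libraries. The exon went from nearly always skipped to nearly always kept, 0.0377 ± 0.048 to 0.975 ± 0.051 (mean ± SD, n = 4 each), on 40.8 and 87.8 junction reads per library and as few as 4 in 1 of them. Of 65 Ttn events tested, 20 were called and 19 of these were higher in inclusion. Counted by distinct exon and taking the deepest event of each, 16 of 34 skipped exons were called, all 16 with more inclusion in P635L Ctr, and all 16 were a multiple of 3 bases long, between 69 and 564 bases. The exons not called were also a multiple of 3 bases long, apart from those of 127 and 188 bases. In 12 of the 16 called exons the libraries of the 2 groups did not overlap. Of the 34 exons, 12 had a mean inclusion under 0.5 in WT Ctr and 3 in P635L Ctr. Next to these a 300-base exon went from 0.0197 to 1 in mean inclusion without passing the FDR of the authors' deposited table, on 15 and 13.5 junction reads per library and with no value in 1 WT Ctr library.

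**Figure D2:**
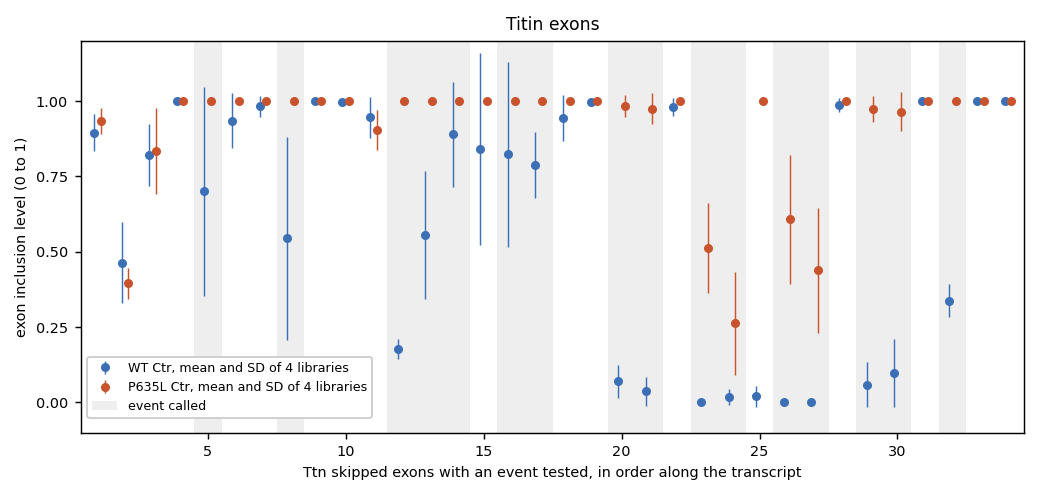
Mean inclusion level (0 to 1, y axis) with its SD over 4 libraries (3 where a library has no value) for the 34 Ttn skipped exons with a tested event, ordered along the transcript (x axis). Grey bands mark the 16 called exons, where P635L Ctr (orange) lies above WT Ctr (blue), while outside the bands the SD bars of the 2 groups mostly overlap, apart from the 300-base exon at position 25.

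Titin's summed expression did not pass the test. It read 1705, 7572, 2261 and 9422 CPM in WT Ctr 1 to 4 and 2303, 2363, 4119 and 2297 CPM in P635L Ctr 1 to 4 (log2 fold change -0.92 ± 0.56, adjusted p = 0.31). Its WT Ctr values were high in libraries 2 and 4, the ones rich in ENSMUSG00000119584, and low in libraries 1 and 3. Without the rich libraries the log2 fold change turned to 0.5144 (adjusted p = 0.19). Among the 1867 genes with the longest gene models, levels in WT Ctr 2 and 4 exceeded those in WT Ctr 1 and 3 by a median of 0.132 on the log2 scale, against -0.0269 among the 1867 shortest.

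Exons of Camk2d and Ryr2, which act in calcium signalling and release, were also included more. The 60-base exon of Camk2d, the main cardiac CaMKII gene (chr3:126599506-126599565, plus strand), was included at 0, 0.045, 0.061 and 0.071 in WT Ctr and at 1, 1, 1 and 0.831 in P635L Ctr, a shift from 0.0442 ± 0.0314 to 0.958 ± 0.0845. All 4 P635L Ctr values lay far above all WT Ctr values, and -0.07 was the log2 fold change of the whole gene (adjusted p = 0.75). The exon was read from 27 and 44 junction reads per library, and as few as 4 in 1 WT Ctr library. Ryr2 encodes the calcium release channel of the sarcoplasmic reticulum. Its 24-base exon (chr13:11649193-11649216, minus strand) was almost absent in WT Ctr, at 0, 0.006, 0.008 and 0.02, and reached 0.226, 0.179, 0.181 and 0.223 in P635L Ctr, from about 311 and 384 junction reads per library. For triadin, which anchors calsequestrin at the release channel, 4 of 57 events were called, and its named 27-base exon at 0.748, 0.677, 0.707 and 0.959 in WT Ctr and 1, 0.878, 0.92 and 0.828 in P635L Ctr overlapped between groups and had a quasi-binomial FDR of 0.37.

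Z-disc and thin-filament transcripts followed. Ldb3 encodes cypher, a PDZ-LIM protein of the Z-disc, and its 359-base exon (chr14:34298943-34299301, minus strand) was included at 0.965, 0.963, 0.968 and 0.943 in WT Ctr and 0.642, 0.68, 0.627 and 0.676 in P635L Ctr. The groups were well separated at 949 and 1702 junction reads per library. Pdlim5, a relative of Ldb3, included its 15-base exon (chr3:142012045-142012059) less, 0.789 ± 0.0245 to 0.558 ± 0.046. The 9-base exon of Tnnt2, cardiac troponin T (chr1:135778117-135778125), went from 0.822 ± 0.0135 to 0.718 ± 0.0264, a small shift with no overlap and by far the deepest of the events named here.

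Tpm2, beta-tropomyosin, switched between its pair of equally long exons. The first (chr4:43519003-43519078, minus strand) was kept at 0.918, 0.798, 0.964 and 0.941 in WT Ctr and at 0.399, 0.354, 0.281 and 0.358 in P635L Ctr. The second (chr4:43518644-43518719) moved the other way, from 0.016, 0.073, 0.005 and 0.008 to 0.46, 0.5, 0.583 and 0.419. Inclusion of the first exon thus fell while that of the second rose, with no overlap in either. A 3' splice site further along the gene (chr4:43514711-43516003) went from 0.0717 ± 0.041 to 0.722 ± 0.0574. Tpm2 was also expressed more highly, at 40.2, 40.2, 63.4 and 46.5 CPM in WT Ctr 1 to 4 and 231, 185, 208 and 151 CPM in P635L Ctr 1 to 4 (4.07-fold, adjusted p = 6.3e-05). Fibroblast markers, whose cells also express this gene, were higher in P635L Ctr too (below), and their part in the Tpm2 result was not tested.

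**Figure D3:**
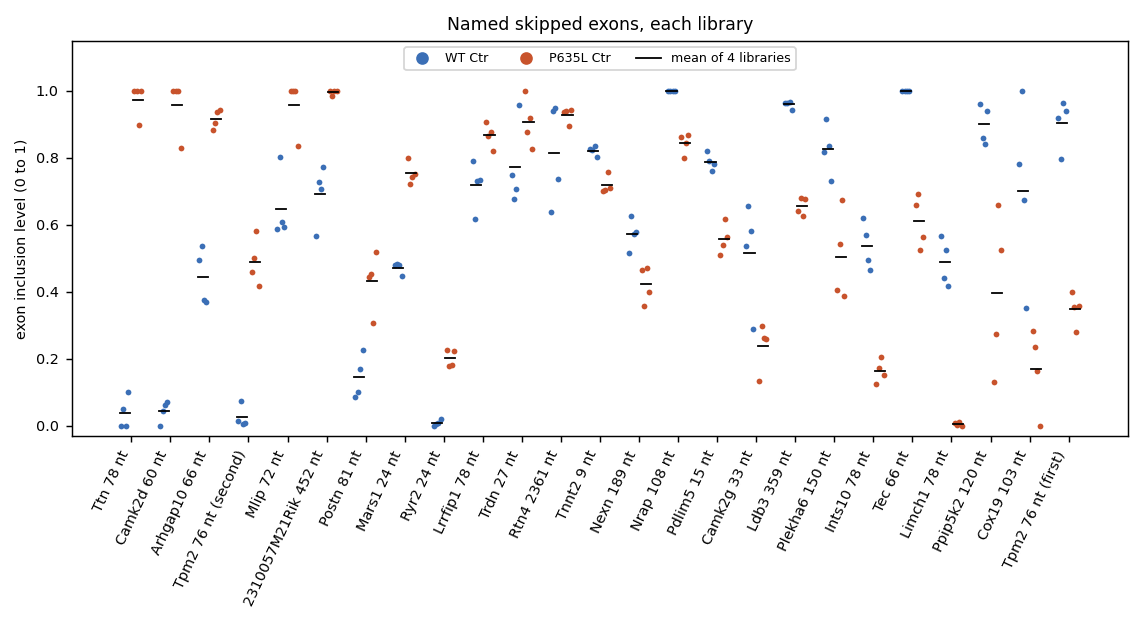
Inclusion level (0 to 1, y axis) of 25 skipped exons in each library (points) with the mean of 4 libraries (bars), ordered from the largest gain to the largest loss in P635L Ctr. The exons of Ttn and Camk2d sit near 0 in WT Ctr (blue) and near 1 in P635L Ctr (orange), Limch1 and the first Tpm2 exon move the other way, and the exons of Trdn, Rtn4 and Camk2g overlap between groups.

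Further known or proposed RBM20 targets showed smaller shifts, from a list of 30 such genes. Inclusion rose for a 72-base exon of Mlip, a muscle lamin-interacting protein, from 0.649 ± 0.103 to 0.959 ± 0.0815. It fell for a 189-base exon of the actin-binding Nexn (0.574 ± 0.0463 to 0.423 ± 0.0544) and a 108-base exon of the intercalated disc protein Nrap (1 ± 0 to 0.845 ± 0.0321). The groups did not overlap in these 3, but the edgeR test of junction counts did not call the events of Mlip (FDR 0.08841) and Nexn (FDR 0.06085). The named events of Camk2g, Enah, Lrrfip1 and Rtn4 were called by the rule above but not by the quasi-binomial test, with FDRs between 0.2464 and 0.3316, and those of Camk2g and Rtn4 overlapped between groups. No event was called for 13 of the 30 genes: Cacna1c, Camk2a, Dst, Dtna, Fhod3, Kcnip2, Lmo7, Mef2a, Mef2d, Myom1, Pdlim3, Sh3kbp1 and Tpm1. The largest number of tested events without a call was 24, for Myom1, an M-band protein, followed by 22 for Cacna1c, the L-type calcium channel.

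Large exon changes also occurred outside that list. The 66-base exon of Arhgap10, a GTPase-activating protein (chr8:78109354-78109419, minus strand), was included at 0.495, 0.537, 0.376 and 0.37 in WT Ctr and 0.882, 0.905, 0.936 and 0.944 in P635L Ctr. A 24-base exon of Mars1, the methionyl-tRNA synthetase, rose from 0.472 ± 0.0169 to 0.754 ± 0.0321, with all 4 WT Ctr libraries within 0.447 to 0.482. The 78-base exon of Limch1, an activator of non-muscle myosin, was nearly lost, from 0.568, 0.442, 0.526 and 0.419 in WT Ctr to 0.009, 0.004, 0.011 and 0 in P635L Ctr. Exons of Ints10, an Integrator subunit (0.537 ± 0.0709 to 0.165 ± 0.0339), and of the tyrosine kinase Tec (1 ± 0 to 0.61 ± 0.0794) were also skipped more. Postn, a matricellular protein of activated fibroblasts, kept its 81-base exon more often, at 0.087, 0.101, 0.171 and 0.227 in WT Ctr and 0.446, 0.454, 0.307 and 0.518 in P635L Ctr, on 95.5 and 783 junction reads per library. Arhgap10 had 7 called events of 31, Ttn 20 of 65, 2210408F21Rik 19 of 108 and Mlip 8 of 75, the 4 genes with the most. For the exons of this and the previous paragraphs without overlap, the exact two-sided permutation test over libraries gave 0.0286, the smallest p that 4 against 4 allows. Lack of overlap fixes that p in advance, so it adds no support. Some of these exons, the 8 each way with the largest changes, were also chosen for lack of overlap.

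The called skipped exons were more often a multiple of 3 bases long, and so neutral to the reading frame, than the others. The share was 48.8% of 545 distinct called exons and 40.8% of 20089 tested exons that were not called. Among called exons with more inclusion it was 53.4% of 221, and among those with less 45.7% of 324. Exons of at most 27 bases made up 3.3% of the called and 1.63% of the other exons, at median lengths of 110 and 113 bases. Genes with a called event were called for expression in 122 of 662 cases (18.4%), against 15% of 7565 genes with tested but no called events. These shares are descriptions, without a test.

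Expression of the 30 RBM20 target genes moved both ways: 7 were higher and 4 lower, with a median log2 fold change of -0.208 that turned to 0.0256 without the libraries rich in ENSMUSG00000119584. The lower count was 2 without P635L Ctr 1, 2 or 4. Besides Tpm2, the Z-disc gene Pdlim3 rose 3.04-fold, from 16.2, 14.4, 17 and 14.4 CPM in WT Ctr 1 to 4 to 49, 57.3, 44 and 37.9 in P635L Ctr 1 to 4. Enah, an actin regulator, rose 2.62-fold (adjusted p = 2.5e-06), and Rtn4 1.78-fold (adjusted p = 0.0013). Among 26 splicing regulators of muscle, 2 were higher and 2 lower (7 higher without WT Ctr 3). The first counts were near the shares over all genes tested, 7.07% higher and 7.14% lower. Rbfox1, a neuronal and muscle splicing factor, read 12.4, 20.1, 15.5 and 26 CPM in WT Ctr and 7.53, 6.86, 9.49 and 8.68 in P635L Ctr (-1.19, adjusted p = 0.0017), and Celf1 was lower by a smaller amount (-0.50, adjusted p = 0.0044). Srsf2 (0.48) and Srsf7 (0.41) were higher. None of these 4 calls held without the rich libraries, where the adjusted p ranged from 0.05118 for Rbfox1 to 0.1388 for Srsf7.

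The 10 genes that rose most included muscle, matrix and natriuretic genes. Fmod (fibromodulin, a collagen-binding proteoglycan, chr1:133964992-133976015) read 0.687, 0.165, 0.959 and 0.695 CPM in WT Ctr 1 to 4 and 19.4, 35.5, 9.88 and 31.3 CPM in P635L Ctr 1 to 4. Casq1 (the skeletal muscle calsequestrin, chr1:172037461-172047435) read 10.4, 12.2, 9.54 and 8.58 CPM and 312, 372, 285 and 316 CPM, a 31.6-fold rise with little spread in either group (adjusted p = 1.5e-09). Ltbp2, which binds latent TGF-beta complexes and microfibrils, rose 18-fold. The protein-coding AW551984 (46.1-fold) and Vgll2, a cofactor of TEAD factors best known in skeletal muscle, were near the limit of detection in WT Ctr. Vgll2 read 0.217, 0.866, 0 and 0.145 CPM in WT Ctr and 7.74, 7.95, 10.3 and 8.7 CPM in P635L Ctr, a log2 fold change of 4.94 (adjusted p = 0.021). The Vgll2 log2 fold change was 4.86 without WT Ctr 1, 4.70 without WT Ctr 4 and 6.49 without the rich libraries, with adjusted p-values of 0.05343, 0.05698 and 0.07587. The others were Nppa, its antisense neighbour Gm13054, Gm11627, ENSMUSG00000120166 and ENSMUSG00000120487, the last at 9.56, 0.559, 8.48 and 14.5 CPM in P635L Ctr 1 to 4, with library 2 far below the rest.

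The 10 that fell most by the same rule were led by genes close to switched off. Myh7b, an ancient myosin heavy chain gene whose intron holds a muscle microRNA (chr2:155453132-155476227), fell from 162, 184, 273 and 279 CPM in WT Ctr 1 to 4 to 0.76, 0.76, 0.821 and 0.716 CPM in P635L Ctr 1 to 4. That is 293-fold lower (adjusted p = 9.9e-10), with the P635L Ctr libraries nearly equal. Hopx, a homeodomain-only transcriptional cofactor of the heart (chr5:77234835-77262968), fell from 264, 245, 303 and 258 CPM to 2.97, 5.01, 3.99 and 3.3 CPM, 69.5-fold lower (adjusted p = 7.9e-09). The unnamed transcript Gm34302 went from 54.3, 67.2, 39.1 and 35.9 CPM to 0.115, 0.0211, 0.182 and 0.0188 CPM, and Gm6969 from 67.6, 76.3, 64.1 and 26.8 CPM to 0.714, 0.602, 0.433 and 0.81 CPM. Lgi1, a secreted synaptic protein, was 22.2-fold lower, and Retnla, a product of alternatively activated macrophages and fat, 22-fold lower. The remaining 4 were Gm14085, Gm4737, Gm49083 and ENSMUSG00000120208. All 10 kept their call in each alternative run.

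**Figure D4:**
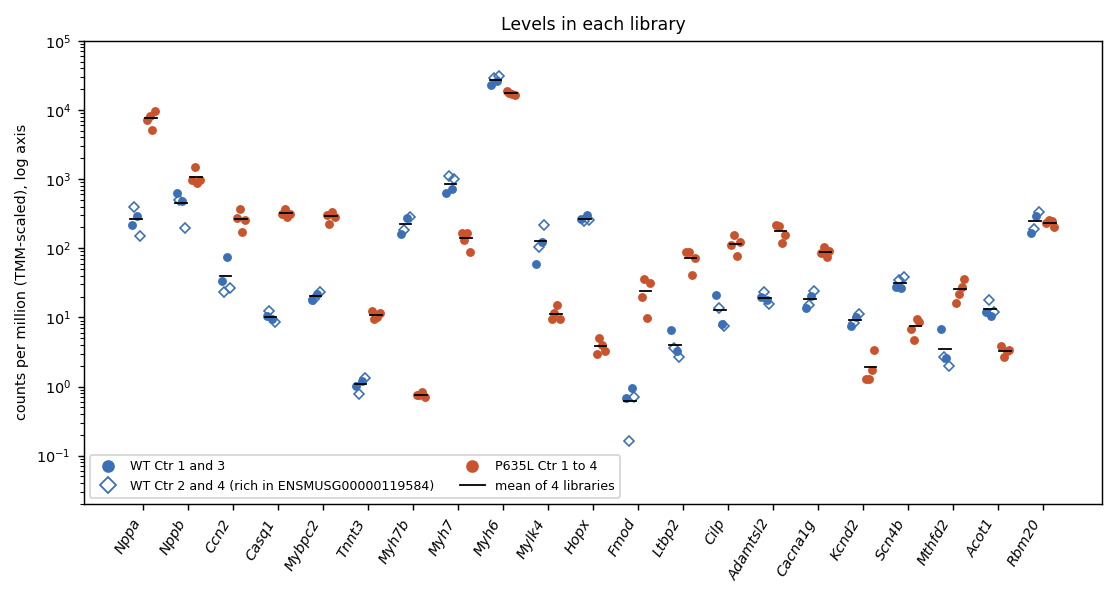
TMM-scaled CPM (y axis, log scale) in each library for 21 named genes, WT Ctr in blue and P635L Ctr in orange, with open diamonds for WT Ctr 2 and 4 and bars for means. Nppa, Casq1 and Mybpc2 sit far higher in P635L Ctr, Myh7b and Hopx far lower, and the Rbm20 values overlap.

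Several of these genes, and others named below, overlap another gene on the opposite strand: Nppa with Gm13054, Casq1 with Gm17224, Ltbp2 with D030025P21Rik, Mybpc2 with Gm44646, Ccn2 with Gm15270, Myh7b with Trpc4ap, Hopx with Hopxos, Lgi1 with Gm42723, Myh7 with Mhrt and Myl3 with Pth1r. Mybphl overlaps Gm12522. Whether strand was used in counting is not given in the sources used here, so the split of reads within each pair is uncertain.

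Natriuretic peptides and ventricular stress genes were more often higher than lower, 8 and 3 of 21, with a median log2 fold change of 0.586 (0.307 without WT Ctr 4). Nppa, atrial natriuretic peptide, read 219.9, 400.3, 289 and 148 CPM in WT Ctr 1 to 4 and 7089.97, 8154, 5133 and 9799 CPM in P635L Ctr 1 to 4, a 28.6-fold rise (log2 4.84 ± 0.52, adjusted p = 1.9e-05). Nppb, B-type natriuretic peptide, rose less, from 631, 493, 487 and 194 CPM to 957, 1501, 888 and 974 CPM. Its groups did not overlap, but its adjusted p of 0.022 became 0.1334 without the rich libraries and 0.06755 without P635L Ctr 2, its highest library, and it was 0.06654 with no filter on low counts. Ccn2 (CTGF), a matricellular protein induced by stretch, rose 6.75-fold from 33.9, 23, 73.9 and 27 CPM to 271, 369, 171 and 255 CPM, and the deubiquitinase Uchl1 7.07-fold. Ankrd1, a titin-associated stress protein named after its values were seen, read 968, 604, 1059.7 and 453 CPM in WT Ctr and 4053, 4016, 3359 and 4277 CPM in P635L Ctr (adjusted p = 1.5e-04).

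The usual fetal myosin was lower, not higher. Myh7, the beta-myosin heavy chain, read 619, 1095, 717 and 991 CPM in WT Ctr 1 to 4 and 166, 134, 167 and 89.5 CPM in P635L Ctr 1 to 4, 6.16-fold lower with no overlap (adjusted p = 6.5e-06). Myh6, the alpha-myosin heavy chain, dropped by 0.64 on the log2 scale (adjusted p = 0.024), a call lost without the rich libraries (adjusted p = 0.1717) and without any 1 of WT Ctr 2, WT Ctr 4 and P635L Ctr 2, 3 and 4 (0.05386 to 0.07187). Among 30 ventricular sarcomere genes 9 were lower and 3 higher, at a median of -0.272. That median was -0.145 without WT Ctr 2 and -0.0955 without the rich libraries, and 5 were lower without P635L Ctr 2. Myl3, the ventricular essential light chain, fell from 10742, 11244, 9733 and 7339 CPM to 3616, 3903, 3896 and 3467 CPM, 2.62-fold lower. Troponins C (Tnnc1, -0.85) and I (Tnni3, -0.81) fell as well, while the M-band gene Myom3 rose 4.63-fold. Tnnt2 (-0.23, adjusted p = 0.35) and Tpm1 (-0.38, adjusted p = 0.0504) did not pass. Mybphl, a myosin-binding protein of atria and conduction cells, was low in WT Ctr at 1.05, 0.33, 0.63 and 0.348 CPM and at 0 in 3 of the 4 P635L Ctr libraries.

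Some genes known from skeletal muscle were higher in P635L Ctr, and others were lower or not called. Of 19 tested from a list of skeletal and atrial sarcomere and calcium genes, 6 were higher and 3 lower, at a median of 0.586 (0.245 without WT Ctr 4). After Casq1 came Mybpc2, the fast myosin-binding protein C, which read 18, 18.2, 21.6 and 23.4 CPM in WT Ctr 1 to 4 and 307, 228, 339 and 280.1 CPM in P635L Ctr 1 to 4 (14.2-fold). Fast troponin T (Tnnt3) rose 9.87-fold, and Myl1 (3.29), Tnni2 (2.97) and Ryr1 (2.36) completed the 6 that rose. Mylk4, a myosin light chain kinase of the heart, went down from 59.3, 102, 124 and 215 CPM to 9.49, 11.4, 15 and 9.55 CPM, as did Cacna1s (-2.61) and slow troponin T (Tnnt1, -2.10). Acta1, skeletal actin, varied widely within WT Ctr (1105, 1609, 396 and 158 CPM), and its difference was not called (adjusted p = 0.64). The fast skeletal myosins Myh1 and Myh4 fell below the filter on low counts. Cardiomyocyte markers as a whole were lower: their summed level ranged from 94200 to 118000 CPM in WT Ctr and from 73500 to 77000 CPM in P635L Ctr, with 5 of 12 lower, and its part in the muscle results was not tested.

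Calcium handling genes were 4 higher and 7 lower of 28, at a median of -0.4, and without the rich libraries 3 higher and 4 lower, at a median of -0.19. Without WT Ctr 2 or P635L Ctr 1 4 were lower, and without WT Ctr 4 or P635L Ctr 4 2 were higher. Both T-type calcium channel genes rose. Cacna1g read 13.6, 15.1, 20.3 and 24.1 CPM in WT Ctr 1 to 4 and 84.9, 103, 75.6 and 92.4 CPM in P635L Ctr 1 to 4 (4.87-fold, adjusted p = 1.5e-07), and Cacna1h rose 2.96-fold. Hrc, a calcium-binding protein of the sarcoplasmic reticulum, fell from 1254, 1696, 1426 and 1360.5 CPM to 647, 664, 787 and 680.3 CPM, and Ppp1r1a, an inhibitor of protein phosphatase 1, was 3.75-fold lower. Atp2a2, the SERCA2 pump, was lower in every P635L Ctr library (2868, 3079, 3995 and 3787 CPM) than in every WT Ctr library (4847, 6673, 4831 and 5593 CPM), yet its adjusted p was 0.061. Phospholamban (Pln) did not pass either (-0.21, adjusted p = 0.44).

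Of 30 potassium and sodium channel genes 7 were lower and 2 higher, at a median of -0.253. Without the rich libraries 5 were lower and 4 higher, at a median of -0.0281, and the median was -0.147 without WT Ctr 2 and -0.166 without P635L Ctr 1. Kcnd2, a pore subunit of the transient outward current, read 7.53, 8.21, 10.2 and 11.2 CPM in WT Ctr 1 to 4 and 1.29, 1.27, 1.76 and 3.39 CPM in P635L Ctr 1 to 4. Kcnv2, a silent potassium channel subunit, was 6.09-fold lower, and Scn4b, a beta subunit of sodium channels, 4.33-fold lower, from 27.5, 34.2, 27 and 38.9 CPM to 6.82, 4.75, 9.51 and 8.52 CPM. In the list of angiotensin, endothelin and adrenergic signalling 3 of 27 were higher and 3 lower. Ace, angiotensin-converting enzyme, rose from 70.7, 72.1, 74 and 48.9 CPM to 219, 211, 152 and 211 CPM, and Grk5, a kinase that silences adrenergic receptors, rose 2.76-fold. The alpha-1A receptor gene Adra1a (3.74-fold) and the cyclic nucleotide phosphodiesterase Pde1c (3.13-fold) were lower.

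Among 25 intercalated disc genes 4 were higher and 4 lower (6 and 2 without the rich libraries), and 1 or 2 were lower without any 1 of WT Ctr 2 and 4 and P635L Ctr 1, 2 and 4. Xirp2, an actin-binding repeat protein, rose (0.82), while the desmosomal cadherin Dsc2 (-0.79) and the coxsackievirus receptor Cxadr (-0.63) fell. The Cxadr call was lost without WT Ctr 2, P635L Ctr 1 or P635L Ctr 2. Of 29 cardiac transcription factors 1 was higher and 4 lower, and without the rich libraries 3 higher and 1 lower, at a median of -0.251 that turned to 0.0341. 2 were lower without any 1 of WT Ctr 3, WT Ctr 4 and the 4 P635L Ctr libraries, and the median was -0.108 without WT Ctr 2. Hopx was the member of this list that moved most. Tbx5 was lower (-0.71, adjusted p = 0.0027; 0.06116 without the rich libraries), and Tbx20 was higher (0.60), a call that was lost without WT Ctr 1 or 3 and without P635L Ctr 1, 2 or 4.

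Many matrix genes rose. Of 45 matrix assembly and matricellular genes 31 were higher and 1, the prolyl hydroxylase P4ha2 (a call lost in 12 of 20 alternatives), was lower, at a median log2 fold change of 0.896. Without the rich libraries 22 of these genes were higher and 0 lower. Cilp, a cartilage and cardiac matrix protein, read 21.4, 13.5, 8.03 and 7.62 CPM in WT Ctr 1 to 4 and 113, 154, 76.6 and 123 CPM in P635L Ctr 1 to 4 (9.26-fold, adjusted p = 8.8e-04). Comp (10.6-fold) and Thbs4 (9.52-fold), 2 related pentameric matricellular proteins, rose together with Fmod, although Comp, at a log2 fold change of 3.22 against 3.41 with them, passed no longer without the rich libraries (adjusted p = 0.05627). Library 3 was the lowest of the P635L Ctr group in Fmod, Comp, Thbs4, Cilp and Ltbp2, and still above every WT Ctr library in all 5. Of 21 collagens 12 were higher and 0 lower, at a median of 0.664. Col12a1 (8.37-fold), Col8a2 (6.07-fold), Col4a3 (4.37-fold) and Col8a1 (3.79-fold) led, ahead of the fibrillar Col1a2, at 219.6, 139.9, 116 and 125 CPM in WT Ctr and 358, 342, 203 and 336 CPM in P635L Ctr. Without the rich libraries the collagen count was 7 higher, and the Col1a2 call was lost (adjusted p = 0.06054). The main vessel basement membrane collagen Col4a1 did not pass (0.19, adjusted p = 0.42).

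Regulators of the matrix moved in the same samples. Of 41 TGF-beta and BMP genes 16 were higher and 1 lower, at a median of 0.462 (0.3 without P635L Ctr 4). They included the activin subunit Inhba, from 2.28, 3.26, 2.47 and 3.27 CPM to 10.3, 11.4, 7.89 and 9.65 CPM (3.48-fold), and Fstl3, which binds activins (3.44-fold). Proteases and inhibitors gave 7 higher and 2 lower of 27 (5 and 0 without the rich libraries). Adamtsl2, a microfibril-associated protein, read 19.97, 23.1, 18.1 and 15.8 CPM in WT Ctr 1 to 4 and 216, 212, 118 and 154 CPM in P635L Ctr 1 to 4 (9.11-fold, adjusted p = 2.0e-06). Mmp23 (5.21-fold) and Adamts8 (6.8-fold) rose without overlap. Fibroblast markers were higher in 10 of 12 and lower in 1, and their summed level ranged from 2560 to 3330 CPM in WT Ctr and from 4060 to 5720 CPM in P635L Ctr. They included Pdgfra, 36.9, 31.8, 32.5 and 33.8 CPM in WT Ctr and 61.4, 63.6, 66.4 and 89 CPM in P635L Ctr. Without the rich libraries 5 markers were higher. Markers of activated fibroblasts, several of them also in the matrix list, were higher in 8 of 12 (198 to 290 CPM against 532 to 1020 CPM in sum), while the contractile marker Acta2 was not (-0.27, adjusted p = 0.37). Of these activated markers 6 were higher without the rich libraries. The part of fibroblast number in the matrix result was not tested.

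**Figure D5:**
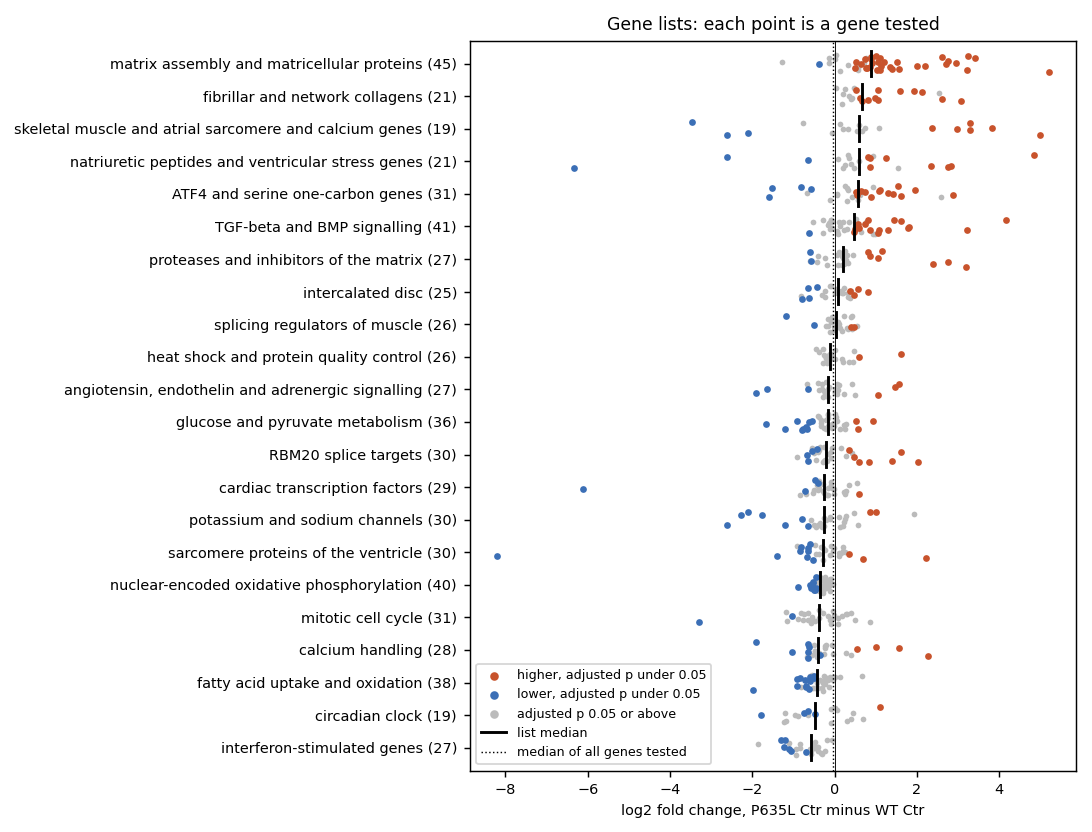
Log2 fold change, P635L Ctr minus WT Ctr (x axis), of each gene tested in each of the gene lists other than cell type markers (rows, number tested in brackets), coloured where the adjusted p was under 0.05. List medians (black bars) run from 0.896 for matrix assembly to -0.581 for interferon-stimulated genes, around the median of -0.049 over all genes (dotted line).

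In 3 metabolic lists more genes were called lower than higher, while most members did not pass. Of 38 genes of fatty acid uptake and oxidation 12 were lower and 0 higher (0 also by DESeq2 or at an unadjusted p under 0.05), at a median of -0.439. That median was -0.292 without the rich libraries, and 7 were lower without WT Ctr 2, P635L Ctr 1 or P635L Ctr 2. The acyl-CoA thioesterase Acot1 read 11.9, 17.8, 10.4 and 12.1 CPM in WT Ctr 1 to 4 and 3.92, 2.63, 3.22 and 3.39 CPM in P635L Ctr 1 to 4 (3.97-fold lower). The mitochondrial thiolase Acaa2 went from 1174, 1226, 1289 and 1076 CPM to 608, 508, 741 and 664 CPM, and Decr1 (-0.91) and the electron transfer flavoprotein Etfb (-0.84) were lower without overlap. Of 40 nuclear-encoded subunits of oxidative phosphorylation 9 were lower, 0 were higher, and all 40 fold changes were negative, at a median of -0.35. This count moved with the libraries used: 24 were lower without the 3 rich libraries and 28 without the 3 with high Xist, sets that also hold Tnpo3 libraries. Leaving out WT Ctr 4 alone gave 21 and WT Ctr 2 alone 1, and leaving out WT Ctr 1, WT Ctr 3, P635L Ctr 1, 2 or 4 gave 3 to 5. Among the 1867 genes with the shortest gene models, of any function, the median log2 fold change was -0.206. The part of gene length in this list was not tested. Cox7a1, a muscle subunit of cytochrome oxidase, fell from 1079.6, 1263, 933 and 679 CPM to 482, 496, 622 and 545 CPM. Ndufb10 (-0.57), Uqcrc1 (-0.54) and Cox8b (-0.60) were called too, but each lost its call without WT Ctr 2. Uqcrc1 also lost it without P635L Ctr 1 or 2, and Cox8b without WT Ctr 1 or P635L Ctr 1, 2 or 4.

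Glucose and pyruvate genes were 9 lower and 3 higher of 36 (1 higher without WT Ctr 4, P635L Ctr 3 or the rich libraries). Hexokinase 2 (Hk2) fell from 248, 379.5, 247 and 309 CPM to 141, 152, 187 and 149 CPM, the pyruvate dehydrogenase phosphatase Pdp2 (-1.21) and Pfkfb1 (-1.67), an enzyme that sets the level of a phosphofructokinase activator, fell, and the glucose transporter GLUT1 (Slc2a1) rose (0.92, adjusted p = 0.0029). The Pdp2 call was lost without the rich libraries (adjusted p = 0.07153). In the list of ATF4 targets and serine and one-carbon genes, which answer amino acid or mitochondrial stress, 13 of 31 were higher and 4 lower, at a median of 0.563. Mthfd2, the mitochondrial folate enzyme, read 6.69, 2.64, 2.58 and 1.97 CPM in WT Ctr 1 to 4 and 16.1, 21.8, 27.5 and 36 CPM in P635L Ctr 1 to 4 (7.35-fold, adjusted p = 3.4e-04). The transcription factor Atf5 rose 3.91-fold without overlap, and the cationic amino acid transporter Slc7a1 was 3.01-fold lower. Atf3 was called (1.61) with P635L Ctr 3 inside the WT Ctr range, and not without the rich libraries (adjusted p = 0.06367). Heat shock genes gave few calls: 2 of 26, Hspa1a (1.61) and the autophagy receptor Sqstm1 (0.59), were higher (4 without WT Ctr 2). Over all genes tested 7.07% were higher.

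Interferon-stimulated genes were 6 lower and 0 higher of 27, at a median of -0.581. Without WT Ctr 1 the median was -0.299, and 3 were lower without WT Ctr 1 or P635L Ctr 2, 3 or 4, as in a fit of the 8 libraries alone. Irf7, a transcription factor of the type I interferon response, read 130.3, 68.1, 46.3 and 53.8 CPM in WT Ctr 1 to 4 and 44.2, 26.5, 24.5 and 33.1 CPM in P635L Ctr 1 to 4, highest in WT Ctr 1. The same library was the highest of WT Ctr for Ifit1, Ifit3, Oas1a and the guanylate-binding protein Gbp2 (165, 33.9, 35.6 and 34.7 CPM), and held the most macrophage and lymphocyte marker reads. Summed macrophage markers ranged from 327 to 914 CPM in WT Ctr and from 274 to 378 CPM in P635L Ctr, with 3 of 14 lower (Cd68, Lyve1 and F13a1) and 0 higher (1 by DESeq2 and 1 at an unadjusted p under 0.05). These calls were not stable: Cd68 was lost in 11 and F13a1 in 9 of 20 alternatives, and Lyve1 without the rich libraries (adjusted p = 0.1156). The list's median of -0.693 was -0.147 without WT Ctr 1, and its lower count ran from 1 to 6 when 1 library was left out, with 6 without WT Ctr 4, 5 without WT Ctr 3 and 1 without WT Ctr 1, WT Ctr 2 or P635L Ctr 1, 2 or 3. The complement gene C1qa did not pass (263, 128, 86.3 and 76.2 CPM in WT Ctr, adjusted p = 0.054). Lymphocyte markers gave 1 call of 14, Cd4 (adjusted p = 0.049, lost in 15 of 20 alternatives), and their median of -1.31 turned to 0.722 without WT Ctr 1. Immunoglobulin kappa (Igkc) read 32.9, 1.2, 1.97 and 1.65 CPM in WT Ctr and 4.22, 5.31, 3.12 and 2.26 CPM in P635L Ctr. Ifit3 lost its call without WT Ctr 1 or any 1 of the P635L Ctr libraries, while Irf7 and Oas1a kept theirs in each alternative run. The part of immune cells in these values was not tested.

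Of 19 circadian clock genes 4 were lower and 1 higher, and without the rich libraries 1 was lower. Leaving out WT Ctr 3, WT Ctr 4 or P635L Ctr 1, 2 or 3 left 0 to 2 lower. The repressors Cry1 (-0.64), Cry2 (-0.73) and Ciart were lower and Npas2 was higher (1.11). Ciart ran from 7.31 to 30.3 CPM within WT Ctr, and each of these 4 calls was lost without WT Ctr 4. The time of day of harvest is not given in the sources used here. Of 31 mitotic genes 2 were lower: Cenpf, a kinetochore and microtubule-associated protein, from 16.5, 15.9, 26.9 and 27.8 CPM to 2.14, 2.03, 2.42 and 2.37 CPM (9.75-fold lower, adjusted p = 1.7e-06), and Nusap1 (-1.03). The median of this list, -0.379, turned to 0.0171 without WT Ctr 1.

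Endothelial, pericyte and smooth muscle, erythroid and platelet, and adipocyte markers gave few calls. None of 12 endothelial markers was called by edgeR or DESeq2, 1 had an unadjusted p under 0.05, and their sums of 2560 to 3060 CPM in WT Ctr and 2430 to 2700 CPM in P635L Ctr overlapped. Of 12 pericyte and smooth muscle markers 1, Abcc9, was lower (-0.80; 3 were lower without P635L Ctr 3), and of 10 erythroid and platelet and 5 adipocyte markers tested 0 were called by either tool, with 0 and 2 at an unadjusted p under 0.05. Of 7 atrial markers tested, 2 were higher (Nppa and Dkk3, 2.27) and 2 lower (Stard10, -0.73, and Tbx5), while the defining atrial genes Myl7, Sln and Bmp10 fell below the filter on low counts in these ventricles. Of 10 markers of mesothelium, nerve and skeletal muscle 2 were lower, Wt1 (-0.56) and Ckm (-1.03), the muscle creatine kinase. Without the rich libraries Abcc9, Stard10 and Wt1 were no longer called, with adjusted p-values of 0.05255, 0.05337 and 0.1918.

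By position, called genes were spread over the genome. Chromosomes with at least 100 genes tested had between 12.2% and 17.3% of them called, and chromosome 19, which carries Rbm20, 14.2%. Within 5 megabases of Rbm20 7 of 49 genes tested were called (14.3%), against 14.2% overall.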

How the data were processed

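RNA-seq of left ventricles gave 16 libraries, 4 in each of 4 groups. The deposited count table holds whole-number reads per gene, made by the authors with STAR 2.7.9a and featureCounts 2.0.6 on GRCm39, per the submitters' processing notes. Use of strand in counting is not given in the sources used here. The authors' deposited rMATS table gives inclusion levels as fractions, junction read counts, p-values and FDRs for WT Ctr against P635L Ctr and a signed difference of inclusion (a score from rMATS as deposited). Its version is not given in the sources used here. The authors' tables made with DESeq2 were not used here.

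From the counts, genes were kept by edgeR's filter on low counts, scaled by TMM factors and fitted over all 4 groups with edgeR's quasi-likelihood test (edgeR 4.0.16, limma 3.58.1, R 4.3.3), with Benjamini-Hochberg adjustment over 18662 genes at 0.05. Totals ran from 28493249 to 85922669 counts for the 8 libraries compared. CPM are TMM-scaled. Alternatives were DESeq2 1.42.0, RLE and upper-quartile factors, other filters, a replicate block, an Xist covariate and fits without libraries. The removal of rich and high-Xist libraries together and the quasi-binomial test were chosen after seeing the data. Genes were named by rule: the 10 with the largest changes each way among called genes whose mean log2 CPM reached 1 or more, and up to 4 called and 2 uncalled members per list. Events named were the 8 skipped exons each way with the largest changes at 20 reads per library, plus the most changed event of each RBM20 target. Members and lists were chosen with earlier results of these data known. The edgeR gene test and the edgeR and quasi-binomial tests of junction reads were run on simulated data. The rMATS test behind the called splicing events was not. Results for some members are not reported here.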

Additional observations from a re-analysis of the deposited data

Results flagged for a closer look

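In 310 groups of 4 libraries or listed positions, 1 value lay far from the other 3 in 24, by a gap to its nearest neighbour beyond Dixon's limit for the group's range. For normally distributed values chance flags about 1 in 20 groups. That rate does not apply to groups with 3 equal values, as at an inclusion of 1 or a CPM of 0, where any other value is flagged.

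WT Ctr 1 was the distant library for Igkc (32.9 CPM against 1.2 to 1.97), Gbp2 (165 against 33.9 to 35.6), Ifit3 (95.1 against 28.7 to 33.5) and Mthfd2 (6.69 against 1.97 to 2.64). These are an immunoglobulin gene, interferon-stimulated genes and a folate enzyme. WT Ctr 4, rich in ENSMUSG00000119584 and high in Xist, was distant for Ace (48.9 against 70.7 to 74 CPM), Uqcrc1 (1630 against 2140 to 2180), Etfb (170 against 201 to 207) and Kcnv2 (17.4 against 6.59 to 8.41). WT Ctr 2 was distant for the heat shock gene Hspa1a at 1.94 CPM against 0.84 to 0.904.

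In P635L Ctr, library 3 was low for Col1a2 (203 against 336 to 358 CPM) and for Ace (152 against 211 to 219). Library 2 was high for Nppb (1500 against 888 to 974 CPM). Library 1 was high for Ifit1 (12.9 against 7.8 to 8.42 CPM) and was the single library with a read of Mybphl, at 0.023 CPM against 0.

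Inclusion levels at 1 listed position stood apart in several called events. In P635L Ctr, position 4 lay apart for Camk2d (0.831, the others at 1), Mlip (0.837, the others at 1) and the 3' splice site of Enah (0.307 against 0.372 to 0.384). Position 3 lay apart for Ttn (0.898, the others at 1), Rtn4 (0.896 against 0.938 to 0.943) and the 3' splice site of Tpm2 (0.808 against 0.689 to 0.696), and position 2 for 2310057M21Rik (0.985, the others at 1). In WT Ctr, position 2 lay apart for Mlip (0.803 against 0.587 to 0.61) and the second Tpm2 exon (0.073 against 0.005 to 0.016), and position 4 for Mars1 (0.447 against 0.479 to 0.482). The cause of these values was not tested.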

How the results depend on the processing

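The count of called genes, 2653, was 2261 with no filter on low counts, 2415 from the 8 libraries alone, 2658 with RLE factors, 2751 with upper-quartile factors and 3334 with DESeq2. It was 1354 at an adjusted p under 0.01 and 1128 with a change of at least 1 (log2), and ran from 1814 to 2545 when 1 library was left out. Without the libraries rich in ENSMUSG00000119584 it was 2320, with 1744 genes shared, and without those high in Xist 3006, with 2281 shared.

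The 870 called splicing events were 560 at an FDR under 0.01, 266 at a difference of at least 0.2, 561 at 20 reads per library and 566 with 10 reads in every library. They were 331 where groups must not overlap, 171 by the quasi-binomial test and 69 by an edgeR test of junction counts. With 1 position left out they were 845 to 881. There only the mean difference was recomputed, and the FDR from all positions was kept. This range therefore cannot show how far the calls rest on 1 library. Among the genes and events recomputed under these settings, the direction turned for Rbm20, Gbp2, Igkc, Ttn and Camk2d. The Rbm20 log2 fold change ran from -0.2018 to 0.1244 when 1 library was left out, above 0 without WT Ctr 3 (0.02966), WT Ctr 4 (0.1244) or P635L Ctr 4 (0.003882). It was 0.0784 without the rich libraries, 0.1573 without the high-Xist ones, 0.0761 with Xist as a covariate and 0.07806 without both kinds. With 1 library left out, the Gbp2 log2 fold change ran from -1.053 to 0.1221 and the Igkc log2 fold change from -1.68 to 1.209, both positive only without WT Ctr 1. The Ttn log2 fold change (-0.92) was 0.5144 without the rich libraries and 0.5141 without both kinds. The Camk2d log2 fold change ran from -0.1687 to 0.002251 with 1 library left out, positive without P635L Ctr 4. The cause was not tested.

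Replicate numbers did not pair the samples: deviations of same-numbered libraries correlated at 0.21, -0.0852, 0.0248 and -0.226, and only replicate 1 correlated best with its own number. With the replicate number as a block 2487 genes were called.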

Other observations

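Alad and Hdhd3, neighbouring genes on chromosome 4, were lower together. Alad, an enzyme of heme synthesis, read 229, 144, 262 and 222 CPM in WT Ctr 1 to 4 and 37.3, 37.9, 47.4 and 38.5 CPM in P635L Ctr 1 to 4 (log2 fold change -2.41 ± 0.19, adjusted p = 1.6e-07 by edgeR's quasi-likelihood test with Benjamini-Hochberg adjustment). Hdhd3 read 17.8, 10.6, 13.6 and 13.8 CPM and 2.83, 3.08, 2.39 and 2.62 CPM (-2.34 ± 0.20, adjusted p = 3.1e-07). The groups did not overlap in either, and the pair was chosen after its values were seen.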
